A study of Brassica napus with 22 samples.

Results

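The light-harvesting antenna protein genes of oilseed rape (Brassica napus) are the LHCA1 to LHCA4 and LHCB1 to LHCB6 families, and their transcript levels were read across the compartments of the young seed. Members were the genes whose best Arabidopsis protein match, as the authors' table gives it, is 1 of 17 antenna loci. This found 68 gene copies among the 101040 genes of the table. By family, 15 copies matched LHCA loci and 53 matched LHCB loci. The A subgenome carried 33 copies and the C subgenome 35. Of the 17 loci, 13 had a copy by this best match. The 4 without one were AT1G29910, AT1G29920 and AT2G34420 of the LHCB1 group and AT2G05070 of the LHCB2 group, all near-identical in Arabidopsis to loci that did have copies. Symbols in the text are those of the Arabidopsis match, so several copies share a symbol. In all, 60 copies reached 1 FPKM in at least 2 of the 8 columns and entered the comparisons, and 8 did not. Those 8 had short gene models of 72 to 462 bases, were at most at 2 FPKM, and 4 of them were listed at 0 in every column.

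The authors grew cultivar Topas under long days and took seed at the globular stage, early in embryo growth. All groups share this cultivar and stage, and no mutant or treatment is given. The groups were the whole seed (3 libraries), the embryo proper (2), the micropylar endosperm (4), the chalazal endosperm (3), the peripheral endosperm (2), and on the maternal side the chalazal proliferating tissue (3 libraries), with the inner layer (3) and the outer layer (2) of the seed coat. The embryo proper and the 3 endosperm regions are filial, products of fertilisation. The whole seed holds all of these tissues and was kept apart from both sides.

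The deposited table gives 1 combined value per gene and group from these 22 libraries, in whole-number FPKM, a fragment count scaled by transcript length and by the sequencing total of the library. Because of the length scaling, FPKM levels of different genes can be set side by side. No spread between replicates could be computed, the read depth is unknown, and no difference here was tested. The column sums ran from 655846 FPKM in the whole seed to 2283005 FPKM in the chalazal endosperm. Ribosomal RNA and organelle genes, 366 in number, held 36.9% of the micropylar column, 4.16% to 16.0% of the other compartment columns and 0.00762% of the whole seed column. The list of 5 embryo markers summed to 703 FPKM in the embryo proper, 80 FPKM in the micropylar endosperm and at most 30 FPKM elsewhere. The list of 6 endosperm markers summed to 819 to 1932 FPKM in the endosperm regions and at most 29 FPKM elsewhere. MINI3 held 705 FPKM of the micropylar sum of 819 FPKM. AGL62 had 24 FPKM there against 1096 FPKM in the peripheral and 1339 FPKM in the chalazal endosperm. PHE1 and TFL1 were also lower there than in those 2 regions, at 2 and 10 FPKM. FIS2 had 20 to 23 FPKM in the 3 regions, and ZOU, at 58 FPKM, was highest in the micropylar endosperm. Of the 4 inner coat markers, TT16 had 1112 FPKM in the inner seed coat and 16 FPKM in the outer seed coat, and TT12 had 36 FPKM in the inner seed coat, its highest compartment. BAN had 1 FPKM in the inner seed coat and 56 FPKM in the chalazal proliferating tissue, where TT16 had 1768 FPKM, and TTG2 was highest in the outer seed coat, at 61 FPKM. Of the 4 outer coat markers, only GL2 was highest in the outer seed coat, at 47 FPKM. MUM4 had 33 FPKM there and 56 FPKM in the micropylar endosperm. MUM2 was listed at 0 there and had 52 FPKM in the peripheral endosperm. TT10 had 2 FPKM there and at most 6 FPKM in any compartment.

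Antenna proteins hold chlorophyll and carotenoid pigments in the thylakoid membrane and pass absorbed light energy to the reaction centres of the photosystems. LHCA proteins form a belt beside photosystem I. LHCB1, LHCB2 and LHCB3 build the trimers of LHCII, the main antenna of photosystem II, and LHCB4, LHCB5 and LHCB6 (CP29, CP26 and CP24) are the minor antennae that link those trimers to its core. Seeds of the mustard family are green while they grow, and their embryo and endosperm hold plastids with thylakoids.

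Antenna transcripts were most abundant in the peripheral and micropylar endosperm and least abundant in the inner seed coat. Summed over the 68 copies, the level was 10460 FPKM in the peripheral endosperm and 9706 FPKM in the micropylar endosperm. It was 3220 FPKM in the chalazal proliferating tissue, 3011 FPKM in the chalazal endosperm and 2212 FPKM in the outer seed coat, a middle group in the values as deposited. The embryo proper had 914 FPKM and the inner seed coat 366 FPKM, and the whole seed stood at 3297 FPKM. In these bulk samples, fewer cells that transcribe the genes and less antenna RNA per cell cannot be told apart.

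**Figure D1:**
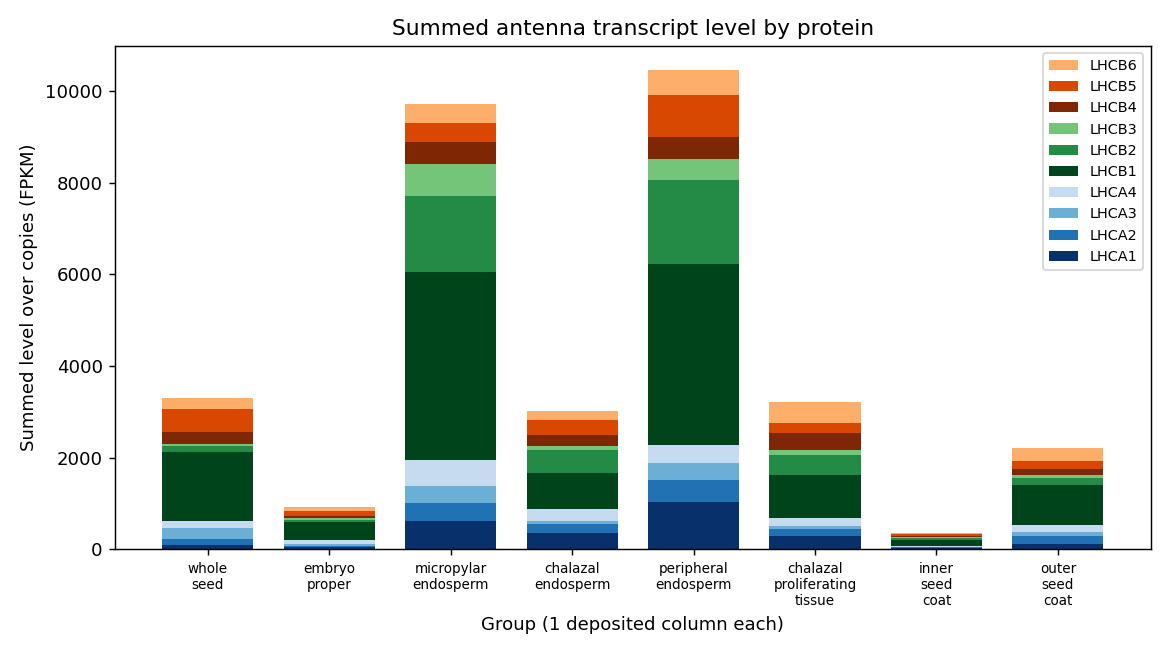
Summed antenna transcript level in FPKM (vertical axis) in each of the 8 groups (horizontal axis, 1 deposited column each), with bar segments for the 10 antenna proteins and no error bars because each group has 1 value. The peripheral (10460 FPKM) and micropylar (9706 FPKM) endosperm bars are the tallest and the inner seed coat bar (366 FPKM) the shortest.

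The order within the upper pair and within the middle group depended on how the columns were scaled. When each column was brought to a common sum without ribosomal RNA and organelle genes, the micropylar endosperm ranked 1 and the peripheral endosperm 2. The outer seed coat then ranked 3, the chalazal proliferating tissue 4 and the chalazal endosperm 5. Quantile normalisation gave the same ranks. The embryo proper and the inner seed coat stayed the lowest in each scaling run.

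The median of the 60 compared copies was 182 FPKM in the peripheral endosperm, 106.5 FPKM in the micropylar endosperm, 40 FPKM in the chalazal endosperm and 9 FPKM in the embryo proper. In maternal tissue it was 36 FPKM in the chalazal proliferating tissue, 20 FPKM in the outer seed coat and 5 FPKM in the inner seed coat. Of the 60 copies, 35 had their highest compartment value in the peripheral endosperm, where 9.64% of all compared genes had theirs. A further 19 were highest in the micropylar endosperm (15.5% of all compared genes), 3 in the chalazal proliferating tissue (13.1%), and 1 was highest in the inner seed coat (10.1%). None was highest in the embryo proper (18.8%), the chalazal endosperm (11%) or the outer seed coat (9.52%), and 2 were tied. The copy highest in the inner seed coat, BnaC02g40680D (LHCB4.2), reached only 3 FPKM there. The lowest value lay in the inner seed coat for 43 copies, ties counted (20.8% of all compared genes), and in the embryo proper for 24 (45.1%). Scaling moved the counts of copies highest in a region: 23 copies were highest in the peripheral endosperm at a common sum without ribosomal RNA and organelle genes, and 8 in the micropylar endosperm at a common median.

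**Figure D2:**
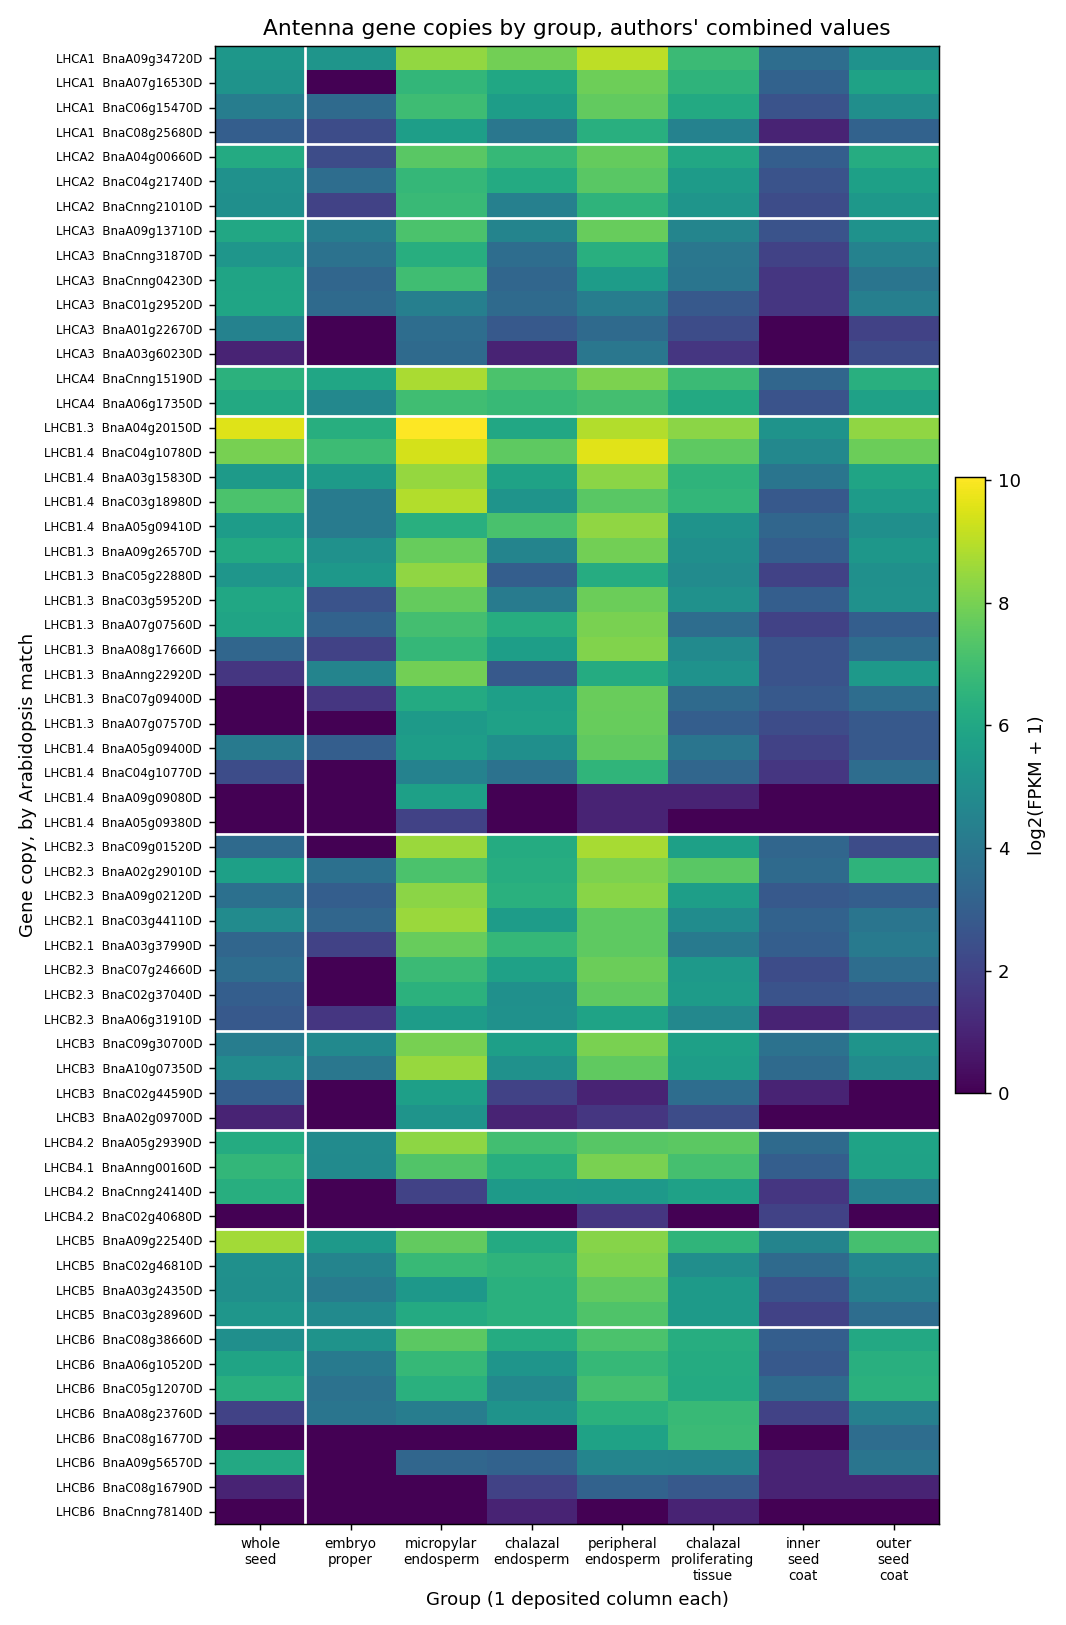
Level of each of the 60 compared antenna gene copies (rows, grouped by antenna protein) in each of the 8 groups (columns), as log2(FPKM + 1) of the authors' combined value. The columns of the micropylar and peripheral endosperm are the brightest in most rows, and the inner seed coat column is the darkest or near it, with no copy above 35 FPKM.

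A copy was counted as higher or lower in a comparison when the mean of log2(FPKM + 1) differed by at least 1 log2 unit (2-fold) between the sides and the higher side had a mean of 5 FPKM or more. Such a rule goes by size alone and has no error rate. Because it compares means of logs, a copy can be called higher where its FPKM is below the plain mean of the other side. The first count of each comparison is set beside the share of all 54278 compared genes that the same rule called, and later counts of that comparison are to be read against the same share.

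In the peripheral endosperm against the other 6 compartments, 53 of 60 antenna copies were higher, 1 was lower and 6 were neither, where the rule called 13.7% of all compared genes higher and 11.4% lower. The median difference of the copies was 2.33 log2 units, beside -0.06 for all compared genes. The 2 chalazal endosperm markers differed in the peripheral column. IPT8 had 5 FPKM there against 359 FPKM in the chalazal endosperm, and AGL35 had 502 against 2178 FPKM. The part of chalazal endosperm tissue in the peripheral values was not tested. Each LHCA1, LHCA2, LHCA4, LHCB2 and LHCB5 copy compared was higher there. The LHCB2.3 copy BnaC09g01520D (C09, 834350 to 835666), a trimer protein, had 423 FPKM in the peripheral endosperm, against 369 FPKM in the micropylar endosperm, 72 FPKM in the chalazal endosperm, 52 FPKM in the chalazal proliferating tissue, 9 FPKM in the inner seed coat and 4 FPKM in the outer seed coat, and was listed at 0 in the embryo proper. Its level was high in both of these endosperm regions and near 0 in the outer coat and the embryo, a difference of 4.38 log2 units for the peripheral endosperm. The 1 lower copy was BnaC02g44590D (LHCB3), at 1 FPKM in the peripheral endosperm and 50 FPKM in the micropylar endosperm, and at a pseudocount of 0.1 or 5 or without the micropylar column no copy was lower.

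The micropylar endosperm against the other 6 compartments gave 50 copies higher, 2 lower and 8 neither, where 19.4% of all compared genes were higher and 18.2% lower. The median difference was 2.06 log2 units for the copies and -0.46 for all compared genes. The 2 lower copies were minor antenna genes: BnaCnng24140D (LHCB4.2), at 3 FPKM in the micropylar endosperm, and the short model BnaC08g16770D (LHCB6), listed at 0 there. All 4 LHCB3 copies compared and all 6 LHCA3 copies were higher, beside only 3 of 8 LHCB6 copies. Embryo markers stood at 80 FPKM in the micropylar column, with 3 of the 5 above 0 and FUS3 and WOX9 at 0, while the antenna sum of the embryo proper itself was 914 FPKM. The part of embryo tissue in the micropylar values was not tested.

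The chalazal endosperm, which lies where nutrients enter from the mother plant, differed from the other endosperm regions in its antenna levels. Against the peripheral endosperm, 0 copies were higher in the chalazal endosperm, 44 were lower and 16 were neither, where 8.58% of all compared genes were higher and 11.4% lower. The median difference was -1.89 log2 units for the copies and 0 for all compared genes. The LHCB1.3 copies BnaC03g59520D and BnaA09g26570D differed most among full-length models, at 17 and 22 FPKM in the chalazal endosperm against 218 and 241 FPKM in the peripheral endosperm. By contrast the 2 LHCA4 copies were at 145 and 108 FPKM in the chalazal endosperm against 268 and 132 FPKM in the peripheral endosperm, and neither was called lower.

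Against the other 6 compartments, the chalazal endosperm had 16 copies higher, 7 lower and 37 neither, where 13.6% of all compared genes were higher and 15.5% lower. LHCB2 had 5 of 8 higher and LHCB5 3 of 4 higher, with no copy of either lower. Of these LHCB2 copies, BnaC09g01520D, BnaA09g02120D and BnaC07g24660D stood below the plain mean of the other 6 compartments. They had 72, 82 and 53 FPKM against 142.8, 116 and 65.7 FPKM. BnaA03g37990D and BnaA06g31910D stood above that mean, at 102 and 33 FPKM against 72.3 and 22.2 FPKM. LHCB1 went both ways, with 4 of 17 copies higher and 6 lower. The LHCB2.1 copy BnaA03g37990D stood at 102 FPKM in the chalazal endosperm, and the LHCB1.3 copies BnaC05g22880D and BnaAnng22920D at 7 and 6 FPKM, against 337 and 239 FPKM in the micropylar endosperm. The split of higher and lower calls turned with the scaling: at a common sum without ribosomal RNA and organelle genes, 2 copies were higher and 21 lower, in a setting that shifted the median of all compared genes by -0.44 log2 units.

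In the micropylar endosperm against the peripheral endosperm, 8 copies were higher, 16 lower and 36 neither, where 19.3% of all compared genes were higher and 19.2% lower, so the antenna copies were called about as often as other genes. Of any size, 20 copies were above in the micropylar endosperm (33.8% of all compared genes) and 39 below. The difference of the summed level was -0.11 log2 units. It turned to 0.18 with quantile normalisation and 0.22 at a common sum without ribosomal RNA and organelle genes. Scaling the columns to a common median moved it to -1.28, with 4 copies higher and 42 lower, and moved the median of all compared genes by -0.86 log2 units.

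**Figure D3:**
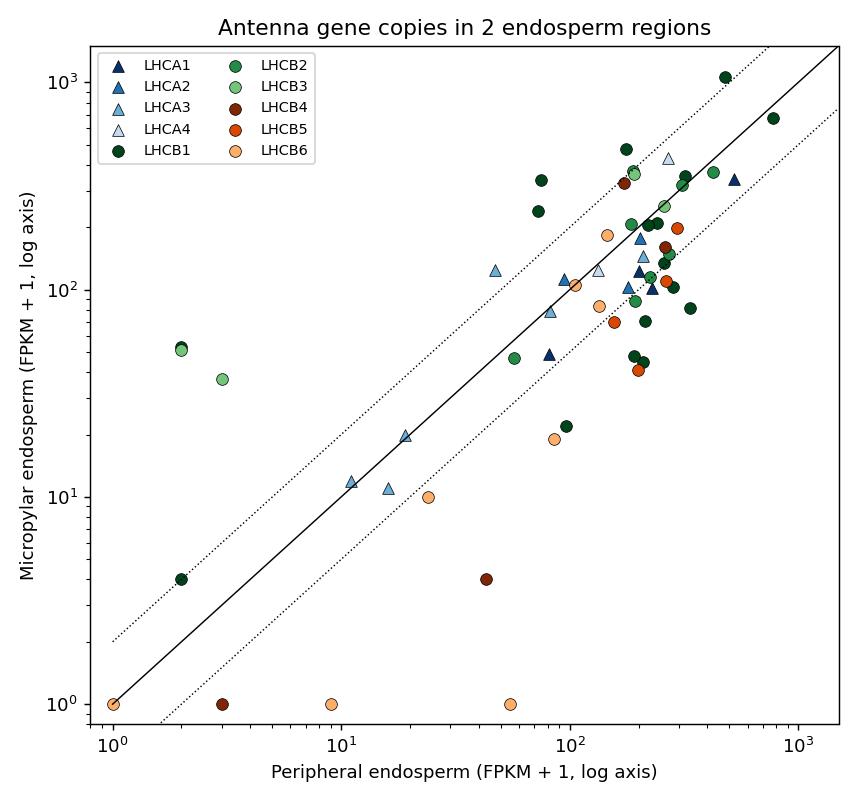
Level of each of the 60 compared antenna copies in the micropylar endosperm (vertical axis) against the peripheral endosperm (horizontal axis), both as FPKM + 1 on log axes, coloured by antenna protein. The solid line marks equal levels and the dotted lines a 2-fold difference: 8 copies lie beyond the upper line and 16 beyond the lower line among those past the floor of 5 FPKM.

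LHCB1, the most abundant trimer protein, was split between the 2 regions by copy, with 5 copies higher in the micropylar endosperm and 6 lower. BnaC05g22880D (LHCB1.3; C05, 16646433 to 16647551) had 337 FPKM in the micropylar endosperm against 74 FPKM in the peripheral endosperm, 4.55 times as much. BnaAnng22920D (LHCB1.3) had 239 FPKM against 72 FPKM, and BnaC03g18980D (LHCB1.4) had 476 FPKM against 175 FPKM. The opposite held for BnaA07g07570D (LHCB1.3; A07, 7849876 to 7852244), with 44 FPKM in the micropylar endosperm against 208 FPKM in the peripheral endosperm, a ratio of 0.212. BnaA05g09410D (LHCB1.4) likewise had 81 FPKM in the micropylar endosperm against 335 FPKM in the peripheral endosperm. Copies of 1 Arabidopsis locus thus lay on both sides.

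Some copies were nearly confined to the micropylar column. BnaA09g09080D (LHCB1.4) had 52 FPKM there and at most 1 FPKM in any other column. Its gene model is short, at 459 bases. The LHCB3 copy BnaC02g44590D had 50 FPKM in the micropylar endosperm, 11 FPKM in the chalazal proliferating tissue and at most 7 FPKM elsewhere. The LHCB3 copy BnaA02g09700D had 36 FPKM in the micropylar endosperm and at most 4 FPKM elsewhere. The 2 abundant LHCB3 copies were less uneven, at 360 FPKM (BnaA10g07350D) and 252 FPKM (BnaC09g30700D) in the micropylar endosperm against 191 and 258 FPKM in the peripheral endosperm. LHCB5 leaned the other way, with 3 of 4 copies lower in the micropylar endosperm: BnaA03g24350D had 40 FPKM there against 197 FPKM in the peripheral endosperm.

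The embryo proper had few antenna transcripts beside the endosperm that surrounds it. Against the 3 endosperm regions, 0 copies were higher, 54 were lower and 6 were neither, where 22% of all compared genes were higher and 16.6% lower. The median difference was -2.78 log2 units for the copies and 0 for all compared genes. In 47 of 60 copies the embryo proper stood below each of the 3 endosperm regions, which held for 13% of all compared genes. Endosperm markers summed to 13 FPKM in the embryo proper, with 4 of the 6 at 0. The summed antenna level was 914 FPKM in the embryo proper against 9706, 10460 and 3011 FPKM in the micropylar, peripheral and chalazal endosperm.

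Against all other 6 compartments, 0 copies were higher in the embryo proper, 44 were lower and 16 neither, where 20.1% of all compared genes were higher and 17.2% lower. All 8 LHCB2 copies were lower, with a median difference of -3.16 log2 units. The copy BnaA07g16530D (LHCA1) was listed at 0 in the embryo proper and had 8 to 229 FPKM in the other compartments, and BnaC07g24660D (LHCB2.3) was listed at 0 in the embryo proper and had 4 to 223 FPKM in the others. In all, 18 of the 60 copies were listed at 0 in the embryo proper, beside 39.3% of all compared genes, so antenna copies were not at 0 more often than other genes. The most abundant copy there was BnaC04g10780D (LHCB1.4; C04, 8400242 to 8401413), with 118 FPKM in the embryo proper against 671 FPKM in the micropylar endosperm, 777 FPKM in the peripheral endosperm and 187 FPKM in the chalazal endosperm. It was the only copy at 100 FPKM or more in the embryo proper, while 38 copies passed that level in the peripheral endosperm.

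Between the filial and maternal sides, 39 copies were higher on the filial side, 1 was lower and 20 were neither, where 10.1% of all compared genes were higher and 16.9% lower. The median difference was 1.36 log2 units for the copies and -0.17 for all compared genes. The LHCB1.3 copy BnaA07g07560D had 133, 258 and 76 FPKM in the micropylar, peripheral and chalazal endosperm and 8 FPKM in the embryo proper, against 11 FPKM in the chalazal proliferating tissue, 7 FPKM in the outer seed coat and 3 FPKM in the inner seed coat. Its 3 endosperm values were above every maternal value, while the embryo proper lay among the maternal values. Of the 8 LHCB6 copies, 1 was higher and 1 lower on the filial side, with a median difference of 0.03 log2 units. The lower copy was the 114-base model BnaC08g16770D, at a mean of 13.5 FPKM on the filial side and 42 FPKM on the maternal side.

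The maternal tissues differed among themselves. In the chalazal proliferating tissue, which sits at the base of the seed next to the chalazal endosperm, 13 copies were higher than in the other 6 compartments, 4 were lower and 43 neither, where 16.5% of all compared genes were higher and 11.2% lower. The count of higher copies was 8 at a pseudocount of 5, 22 at a common median and 21 without the micropylar column, and at a common median or without the micropylar column no copy was lower. Endosperm markers summed to 2 FPKM in this tissue, with 5 of the 6 at 0, and both chalazal endosperm markers, IPT8 and AGL35, were at 0. By protein, 4 of 8 LHCB6 copies, 3 of 4 LHCB4 copies and 4 of 8 LHCB2 copies were higher, with 1 LHCB2 copy lower, and of the 17 LHCB1 copies 0 were higher and 3 lower. The LHCB6 copy BnaA08g23760D (A08, 16795835 to 16797155) had 109 FPKM in the chalazal proliferating tissue, against 84 FPKM in the peripheral endosperm, 35 FPKM in the chalazal endosperm, 20 FPKM in the outer seed coat, 18 FPKM in the micropylar endosperm, 14 FPKM in the embryo proper and 3 FPKM in the inner seed coat. The LHCB4.2 copy BnaCnng24140D had 53 FPKM there, against 43 FPKM in the chalazal endosperm and 42 FPKM in the peripheral endosperm. BnaC08g16770D (LHCB6) had 115 FPKM there, against 54 FPKM in the peripheral endosperm, 11 FPKM in the outer seed coat and a listing at 0 for the remaining compartments. Its model spans only 114 bases (C08, 20662096 to 20662209), which makes its FPKM rest on few bases.

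The inner seed coat was the poorest compartment. Against the other 6, 0 copies were higher, 56 lower and 4 neither, where 15.4% of all compared genes were higher and 6.99% lower. The median difference was -2.71 log2 units for the copies and 0.21 for all compared genes. Of any size, its value was below that of the chalazal proliferating tissue in 58 of 60 copies (32.6% of all compared genes) and below that of the outer seed coat in 52 (30.6%). The embryo proper stood above the inner seed coat in 36 copies (35.5%) and below it in 17. The LHCA4 copy BnaCnng15190D had 9 FPKM in the inner seed coat, against 433 FPKM in the micropylar endosperm, 268 FPKM in the peripheral endosperm, 145 FPKM in the chalazal endosperm, 115 FPKM in the chalazal proliferating tissue, 81 FPKM in the outer seed coat and 61 FPKM in the embryo proper. Against its maternal neighbour the outer seed coat, 1 copy was higher in the inner seed coat, 43 lower and 16 neither, where 11.7% of all compared genes were higher and 9.03% lower. The LHCB6 copy BnaA06g10520D had 6 FPKM in the inner seed coat against 81 FPKM in the outer seed coat, and the LHCA2 copy BnaA04g00660D had 7 FPKM against 73 FPKM. The 1 higher copy was BnaC09g01520D (LHCB2.3), with 9 FPKM in the inner seed coat against 4 FPKM in the outer seed coat, and it was not called at a pseudocount of 5, with quantile normalisation or at a common sum without ribosomal RNA and organelle genes. The peripheral endosperm against the inner seed coat gave the widest contrast, with 54 copies higher in the peripheral endosperm, 0 lower and 6 neither, where 13.2% of all compared genes were higher and 16.9% lower. There the summed level was 28.5-fold higher, and BnaA07g07560D (LHCB1.3) had 258 FPKM in the peripheral endosperm against 3 FPKM in the inner seed coat.

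The outer seed coat against the other 6 compartments had 6 copies higher, 17 lower and 37 neither, where 14.8% of all compared genes were higher and 10.4% lower. Endosperm markers summed to 2 FPKM in the outer seed coat, with 5 of the 6 at 0. LHCB6 made up 4 of the 6 higher copies, and LHCB2 7 of the 17 lower ones. Of these 4, 1 was the 114-base model BnaC08g16770D, at 11 FPKM against a plain mean of 28.2 FPKM over the other 6 compartments. The LHCB6 copy BnaC05g12070D had 85 FPKM in the outer seed coat, against 134 FPKM in the peripheral endosperm, 82 FPKM in the micropylar endosperm, 69 FPKM in the chalazal proliferating tissue, 25 FPKM in the chalazal endosperm, 13 FPKM in the embryo proper and 10 FPKM in the inner seed coat. The LHCB2.3 copy BnaA09g02120D had 7 FPKM in the outer seed coat, against 318 and 310 FPKM in the micropylar and peripheral endosperm. At a common sum without ribosomal RNA and organelle genes the counts were 15 higher and 11 lower, with the median of all compared genes shifted by 0.52 log2 units. They were 10 higher and 9 lower without the micropylar column, 12 copies were higher with quantile normalisation, and 1 was higher at a pseudocount of 5.

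The make-up of the antenna pool differed between compartments as well as its size. Photosystem I antennae made up 28.8% of the summed antenna level in the chalazal endosperm, the largest such share. They made up 18.3% in the inner seed coat, 20.1% in the micropylar endosperm, 21.3% in chalazal proliferating tissue, 21.8% in the peripheral endosperm, 22.4% in the embryo proper, with 23.5% in the outer seed coat. The whole seed had 19.0%. The ratio of LHCB to LHCA transcripts was accordingly lowest in the chalazal endosperm, at 2.47, and 3.25 to 4.46 in the other compartments. Within photosystem I the leading copy was BnaA09g34720D (LHCA1; A09, 25409080 to 25410846), with 522 FPKM in the peripheral endosperm, 341 FPKM in the micropylar endosperm, 237 FPKM in the chalazal endosperm and 114 FPKM in the chalazal proliferating tissue. It had 37 FPKM in the embryo proper, 34 FPKM in the outer seed coat and 11 FPKM in the inner seed coat. LHCA3 did not share in this: its 6 copies summed to 59 FPKM in the chalazal endosperm against 378 FPKM in the peripheral endosperm, beside 361 against 1031 FPKM for LHCA1.

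LHCB1 was the largest of the 10 proteins in each of the 7 compartments, with 26.8% of the antenna sum in the chalazal endosperm, 29.0% in chalazal proliferating tissue and 36.6% to 43.1% in the other 5. Its most abundant copy, BnaA04g20150D (LHCB1.3; A04, 15583474 to 15584422), had the highest mean of all antenna copies. It had 1059 FPKM in the micropylar endosperm, 475 FPKM in the peripheral endosperm, 329 FPKM in the outer seed coat, 317 FPKM in the chalazal proliferating tissue, 78 FPKM in the embryo proper, 64 FPKM in the chalazal endosperm and 35 FPKM in the inner seed coat. Its level was low in the chalazal endosperm, where the copy of next highest mean, BnaC04g10780D (LHCB1.4), had 187 FPKM. Without BnaA04g20150D the LHCB1 share was 35.2% in the micropylar endosperm and 21.3% in the chalazal proliferating tissue.

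LHCB2, which like LHCB1 is phosphorylated when energy is moved between the photosystems, had a wider spread of shares over the compartments, as a ratio of highest to lowest, than LHCB1 or LHCB3. It made up 17.1% of the antenna sum in the micropylar endosperm, 17.7% in the peripheral endosperm and 16.4% in the chalazal endosperm, against 3.61% in the embryo proper. In maternal tissue it made up 13.4% in chalazal proliferating tissue, 13.7% in inner seed coat and 6.87% in outer seed coat. The ratio of LHCB1 to LHCB2 transcripts was therefore 11.9 in the embryo proper against 1.63 to 2.47 in the 3 endosperm regions, and 5.79 in the outer seed coat against 2.68 in the inner seed coat. Copies of the LHCB2.3 match carried much of this, with 21 FPKM in sum in the embryo proper against 1474 FPKM in the peripheral endosperm.

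**Figure D4:**
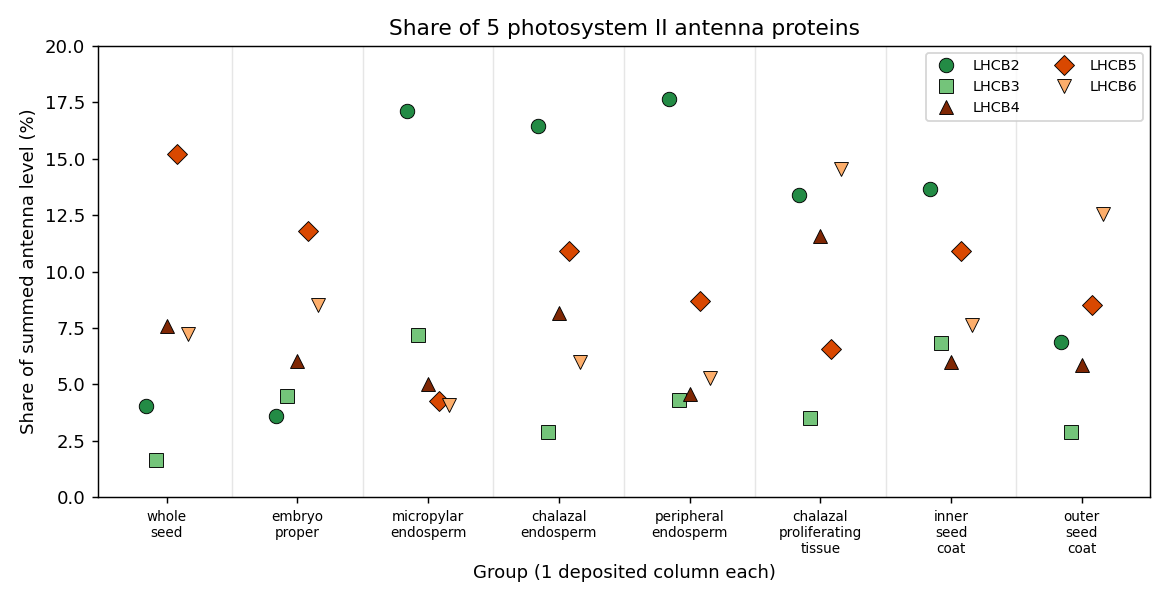
Share of the summed antenna level, in percent (vertical axis), held by LHCB2, LHCB3, LHCB4, LHCB5 and LHCB6 transcripts in each of the 8 groups (horizontal axis, 1 deposited column each). LHCB2 stands near 17% in the 3 endosperm regions and at 3.61% in the embryo proper, while LHCB6 is highest in the chalazal proliferating tissue (14.6%) and the outer seed coat (12.6%).

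The minor antennae together made up 32.7% of the antenna sum in the chalazal proliferating tissue, 24.6% to 26.9% in the embryo proper, the chalazal endosperm and both seed coats, 18.6% in the peripheral endosperm and 13.4% in the micropylar endosperm. LHCB4 had its highest share in the chalazal proliferating tissue, at 11.6%, and LHCB4.2 copy BnaA05g29390D had 184 FPKM there beside 327 FPKM in the micropylar endosperm, 171 FPKM in the peripheral endosperm and 126 FPKM in the chalazal endosperm. LHCB6 held 14.6% of the sum in chalazal proliferating tissue, and its share was 12.6% in the outer seed coat, against 4.07% to 8.53% in the other 5 compartments. Without gene models under 600 bases, an alternative added after the data were seen, these 2 shares were 11.4% and 12.1%. LHCB5 ran from 4.28% in the micropylar endosperm to 11.8% in the embryo proper, and its leading copy BnaA09g22540D (A09, 15065481 to 15066759) had 295 FPKM in the peripheral endosperm, 197 FPKM in the micropylar endosperm, 134 FPKM in the outer seed coat and 42 FPKM in the embryo proper.

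The A subgenome held 64.4% of the antenna sum in the whole seed and 52.4% to 59.8% in the compartments. Without BnaA04g20150D the A share was 54.0% in the whole seed and 47.9% to 58.9% in the compartments, so that the C copies then held the larger part in the embryo proper (A share 48.0%) and in the micropylar endosperm (A share 47.9%). At 2 loci there was exactly 1 A and 1 C copy. At LHCA4, the A copy BnaA06g17350D stood below the C copy BnaCnng15190D in all 8 columns, for example at 124 against 433 FPKM in the micropylar endosperm. At LHCB2.1, the A copy BnaA03g37990D stood above the C copy BnaC03g44110D in the chalazal endosperm, at 102 against 46 FPKM, and below it in the micropylar endosperm, at 207 against 372 FPKM. In the peripheral endosperm they had 185 and 189 FPKM.

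Several LHCB1.4 and LHCB1.3 copies lie side by side, and how the authors' processing shared reads between such near-identical copies is not given in the sources used here, so the values of single copies are less certain than sums. On chromosome A07, BnaA07g07560D (7848572 to 7849375) and BnaA07g07570D (7849876 to 7852244) are 500 bases apart. They had 58 FPKM and 0 in the whole seed, and 258 and 208 FPKM in the peripheral endosperm. On C04, BnaC04g10770D and BnaC04g10780D are 472 bases apart and had 95 and 777 FPKM in the peripheral endosperm. On C08, the 114-base model BnaC08g16770D lies 103 bases from BnaC08g16780D, which was listed at 0 in every column.

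The whole seed, against the 7 compartments, had 10 copies higher, 15 lower and 35 neither, where 16.1% of all compared genes were higher and 9.6% lower. The share of copies called higher, 16.7%, was thus about that of other genes. The antenna sum of 3297 FPKM lay inside the range of the compartments. In 5 copies the whole seed value was above every compartment, about as often as among all compared genes (8.39%). Among them, BnaA09g56570D (LHCB6) had 66 FPKM in the whole seed and at most 23 FPKM in a compartment. BnaCnng24140D (LHCB4.2) had 78 against at most 53 FPKM, and BnaC01g29520D (LHCA3) had 59 against at most 19 FPKM. LHCB1 copies went both ways, with 3 higher and 6 lower. BnaA04g20150D (LHCB1.3) had 748 FPKM in the whole seed against a mean of 336.7 FPKM over the compartments, while BnaC07g09400D and BnaA07g07570D (both LHCB1.3) were listed at 0 in the whole seed with 213 and 208 FPKM in the peripheral endosperm, and BnaAnng22920D had 2 FPKM in the whole seed with 239 FPKM in the micropylar endosperm. In all, 7 copies were listed at 0 in the whole seed (20% of all compared genes). At a common sum without ribosomal RNA and organelle genes the counts were 21 higher and 7 lower, and 16 copies were higher with quantile normalisation. In the whole seed the LHCB1 to LHCB2 ratio was 11.1 and the LHCB5 share 15.2%. Of the LHCB5 sum of 502 FPKM there, BnaA09g22540D held 401 FPKM, or 79.9%. Its highest compartment value was 295 FPKM, so it was also among the 5 copies above every compartment.

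Genes of the same membrane complexes were read from lists of Arabidopsis loci and compared by the same rule. In the peripheral endosperm against the other 6 compartments, 41 of 44 photosystem I copies and 39 of 44 photosystem II copies were higher and 0 lower, with medians of 2.46 and 2.34 log2 units. In the inner seed coat, 40 and 36 were lower and 0 higher. In the embryo proper, 33 and 28 were lower and 0 higher. An example is BnaA09g01080D (PSAD1), with 379 FPKM in the peripheral endosperm, 289 FPKM in the micropylar endosperm, 34 FPKM in the embryo proper and 22 FPKM in the inner seed coat. In the micropylar endosperm against the other 6 compartments the counts were smaller than for the antennae: 24 photosystem I copies were higher and 5 lower (median 1.33 log2 units), and 23 photosystem II copies were higher and 4 lower, beside 50 higher and 2 lower of the 60 antenna copies. The antenna sum was 2.28 times the photosystem I sum in the micropylar endosperm and 1.49 times in the peripheral endosperm. In the micropylar endosperm against the peripheral endosperm, 18 and 21 of the photosystem copies were lower, beside 1 and 0 higher.

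Rubisco small subunits, part of the enzyme that fixes carbon dioxide, parted from the antennae in the chalazal proliferating tissue and, less far, in the outer seed coat. In the chalazal proliferating tissue 1 of 15 copies was higher than in the other 6 compartments and 9 were lower. The median was -2.69 log2 units, beside 0.31 for the antenna copies and 0.77 for photosystem I. In the outer seed coat 0 were higher and 9 lower, with a median of -1.32 log2 units, beside -0.35 for the antenna copies. The antenna sum was 4.29 times the Rubisco sum in the chalazal proliferating tissue (3220 against 750 FPKM) and 0.798 times in the peripheral endosperm (10460 against 13109 FPKM). It was 3.03 times in the outer seed coat and 5.28 times in the whole seed. The RBCS3B copy BnaA02g12800D had 3 FPKM in the chalazal proliferating tissue and 2348 FPKM in the peripheral endosperm. The Rubisco copy of highest mean, BnaC04g30870D (RBCS1B), was less uneven. It had 311 FPKM in the chalazal proliferating tissue, 357 FPKM in the outer seed coat and 910 FPKM in the peripheral endosperm.

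Chlorophyll synthesis genes were higher in the peripheral endosperm in 44 of 50 copies, with 0 lower. In the embryo proper 5 were higher and 10 lower, with a median of -0.18 log2 units, beside -1.74 for the antenna copies. The CRD1 copy BnaA07g17040D, for a cyclase of the pathway, had 28 FPKM in the embryo proper and 97 FPKM in the peripheral endosperm. Genes that carry antenna proteins through the stroma and into the membrane had 6 of 17 copies higher in the embryo proper than in the other 6 compartments and 0 lower, and 4 higher and 4 lower against the 3 endosperm regions alone. The LTD copy BnaC05g32350D, for a translocation protein of antennae, had 57 FPKM in the embryo proper, 56 FPKM in the micropylar endosperm and 48 FPKM in the peripheral endosperm. Of the 6 copies for kinases and the phosphatase of antenna phosphorylation, 2 were higher in the peripheral endosperm and 0 lower.

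**Figure D5:**
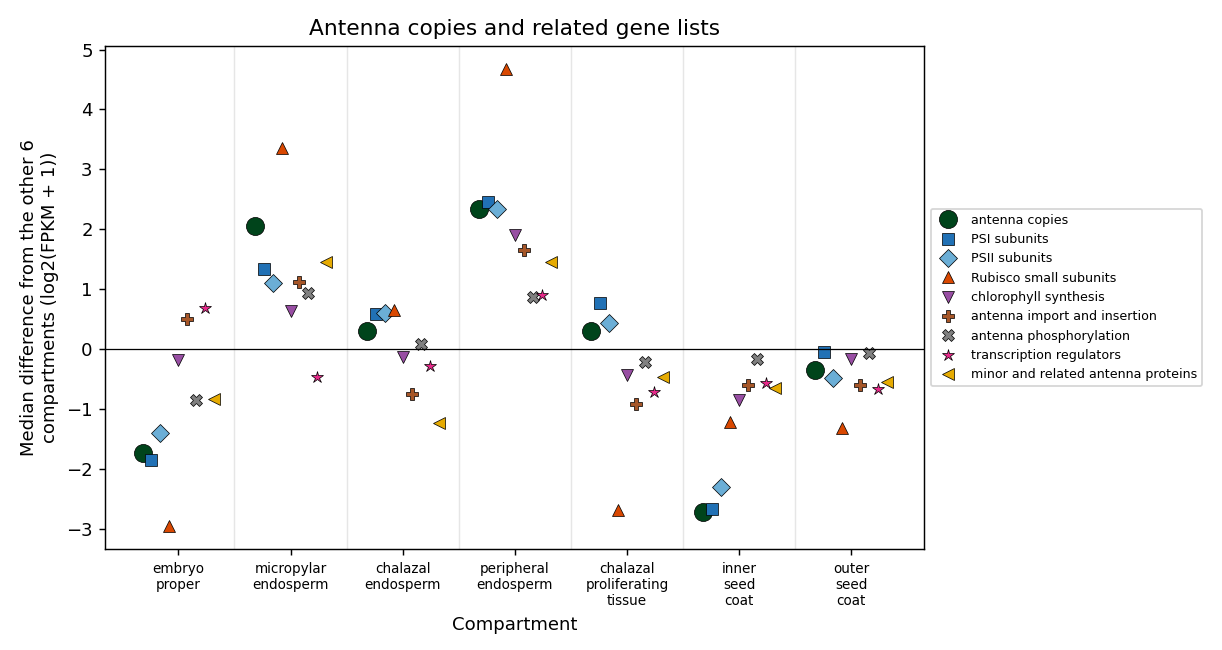
Median difference, in log2(FPKM + 1) units (vertical axis), of each compartment from the other 6 (horizontal axis) for the antenna copies and 8 related gene lists, 1 marker per list. Antenna copies, photosystem I and photosystem II subunits lie close together in the peripheral endosperm (2.33, 2.46 and 2.34) and in the inner seed coat, while Rubisco small subunits stand at -2.69 in the chalazal proliferating tissue.

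Regulators of photosynthesis gene expression were low in level. GLK1 copies summed to 29 FPKM in the chalazal endosperm, 19 FPKM in the peripheral endosperm and 1 FPKM in the micropylar endosperm, and were listed at 0 in the embryo proper, all maternal tissues and the whole seed. GLK2 copies summed to 26 FPKM in the micropylar endosperm, 20 FPKM in the peripheral endosperm, 17 FPKM in the chalazal endosperm and 6 FPKM in the embryo proper, and were listed at 0 in the maternal tissues. The chalazal proliferating tissue and the outer seed coat, with antenna sums of 3220 and 2212 FPKM, were listed at 0 for every GLK1 and GLK2 copy. Values are rounded to whole numbers, so a listing at 0 can hide a low level. A link between these regulators and the antenna levels was not tested. HY5, a light-signalling factor, summed to 161 FPKM in the chalazal endosperm, 83 FPKM in the peripheral endosperm, 57 FPKM in the chalazal proliferating tissue and 10 to 26 FPKM in the other 4. GUN1 copies, also on the list, were highest in the embryo proper, at 47 FPKM in sum. Over the list, 8 of 18 copies compared were higher in the peripheral endosperm and 0 lower, and 7 were higher in the chalazal endosperm and 0 lower.

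Relatives of the antenna proteins did not all follow them. Of 18 copies compared, 9 were higher in the peripheral endosperm, 4 lower and 5 neither. LHCB4.3 copies, a further CP29 form, summed to 411 FPKM in the micropylar endosperm and 359 FPKM in the peripheral endosperm. In these 2 regions LHCB4.1 copies summed to 159 and 260 FPKM and LHCB4.2 copies to 330 and 218 FPKM, each below LHCB4.3. In the chalazal endosperm LHCB4.3 copies summed to 25 FPKM, while LHCB4.1 and LHCB4.2 copies summed to 77 and 169 FPKM there. PSBS, which is needed to shed excess light energy, summed to 540 FPKM in the peripheral endosperm, 368 FPKM in the micropylar endosperm and 25 FPKM in the inner seed coat. The early light-induced proteins, made under light stress, were split by locus. ELIP2 copies summed to 526 FPKM in the peripheral endosperm, 121 FPKM in the chalazal endosperm and at most 5 FPKM elsewhere. ELIP1 copies summed to 548 FPKM in the whole seed, 224 FPKM in the micropylar endosperm, 154 FPKM in the outer seed coat and 2 FPKM in the peripheral endosperm.

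Across the 7 compartments, the pattern of each gene at 50 FPKM or more in a compartment was set beside that of the summed antenna level by Pearson's r of log2 values, as a description over 7 points that share the columns and their scaling. The antenna copies make up that sum and were left out. Of 9176 other genes, 68 (0.741%) reached an r of 0.9. Only genes with a description were considered for naming. The nearest of these were mostly photosystem subunits, led by BnaC03g50210D (PSAN, r of 0.99), BnaC08g05450D (PSAL) and BnaC09g07990D (PSBO1), both at 0.98. The nearest described gene outside photosynthesis was BnaC04g24860D, a calmodulin 5 match (r of 0.98). It had 122 FPKM in the micropylar endosperm, 81 FPKM in the peripheral endosperm and 13 FPKM in the inner seed coat.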

How the data were processed

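Total RNA libraries of 22 samples in 8 groups had been combined by the authors before deposit. Per the labels, a NuGen Ultralow kit was used, and the submitters' processing notes name Trimmomatic 0.36, HISAT2 and Cufflinks without roles or settings. The genome build, the way libraries were combined and the assignment of reads to near-identical copies are not given in the sources used here. The unit is recorded as a score: FPKM that the authors rounded to whole numbers (100% of values) and deposited as 1 column per group. The heading for whole seed gives no unit, and its values were treated as FPKM. A further 1 column of values, headed gCZSC, matched no sample and was not used. The other deposited column used, of other unit, is the gene length in bases, per the file headers. Coordinates come from the deposited table, each start moved by 1.

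Of 101040 genes, 593 had no compartment values, and the 54278 that reached 1 FPKM in 2 or more of 8 columns were compared. Each of 14 comparisons took the difference of mean log2(FPKM + 1) between the sides. Moderated tests with limma had been planned for replicate columns and could not be run, so a rule of size was used: 1 log2 unit and 5 FPKM on the higher side. The code was checked on simulated data. Members, gene lists (8 lists of 64 loci), comparisons and alternatives were chosen with earlier results of these data known. Named were up to 3 copies per locus by mean level, the 3 of largest difference each way per comparison, copies whose highest compartment is not the peripheral endosperm, copies above every compartment in the whole seed, and up to 2 copies per list. BnaA05g09410D, BnaC04g10770D, BnaC08g16780D, BnaC02g40680D and the sums over list loci were chosen after their values were seen. Alternatives were pseudocounts of 0.1 and 5, other filters and floors, a difference of 2 log2 units, 3 scalings of the columns and the omission of the micropylar column. The scripts ran in Python 3.11.15 with pandas 2.3.3, numpy 2.4.6 and, for plots, matplotlib 3.10.9.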

Additional observations from a re-analysis of the deposited data

How the results depend on the processing

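No paired analysis was possible because each group has 1 combined column, and for the same reason no replicate could be left out. Among the summed levels and the copies of largest difference per comparison, no difference past 1 log2 unit changed sign under an alternative. Smaller summed differences did, and the remaining copies were not checked for sign. At a common sum without ribosomal RNA and organelle genes the summed difference from the other 6 compartments was -0.94 for the chalazal endosperm (0.27 as deposited) and 0.44 for the outer seed coat (-0.25 as deposited), and the balance of higher and lower copies turned for the chalazal endosperm, the outer seed coat and the whole seed. The outer seed coat was at 0.35 with quantile normalisation and 0.13 without the micropylar column. Depth is unknown, whole-number FPKM makes levels under about 5 coarse, and no error can be given for any count. The setting without a filter on low values could move no count, because the copies it adds were at most at 2 FPKM, under the floor of 5 FPKM. With its counts and those that stayed at 0 included, 236 of 290 counts recomputed were within 1.5 times the count reported and 54 were not. The cause was not tested.

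At a difference of 2 log2 units, the higher and lower counts were as follows: 24 lower for the embryo proper, 32 and 1 for the micropylar endosperm, 0 lower for the peripheral endosperm, 2 and 3 for the chalazal endosperm, 3 and 0 for the chalazal proliferating tissue, 0 and 4 for the outer seed coat, 12 higher for filial against maternal, 4 and 9 for micropylar against peripheral endosperm, 28 lower for chalazal against peripheral endosperm, 0 higher for inner against outer seed coat, and 5 and 5 for the whole seed. Without the micropylar column, the embryo proper had 1 higher, the peripheral endosperm 0 lower, the chalazal endosperm 4 lower, the chalazal proliferating tissue 21 and 0, the outer seed coat 10 and 9, and the whole seed 9 lower. At a pseudocount of 0.1, 0 were lower in the peripheral endosperm and 2 on the filial side. At a pseudocount of 5, 0 were lower in the peripheral endosperm, and 8 were higher in the chalazal proliferating tissue, 1 for the outer seed coat and 0 for inner against outer seed coat. With no floor, 1 copy was higher in the inner seed coat, 2 in chalazal against peripheral endosperm and 3 in inner against outer seed coat.

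At a common median, 0 were lower in the peripheral endosperm, 22 and 0 were called in the chalazal proliferating tissue, 2 were lower on the filial side, 4 and 42 were called in micropylar against peripheral endosperm with a summed difference of -1.28, and 8 copies were highest in the micropylar endosperm. At a common sum without ribosomal RNA and organelle genes, the counts were 2 and 21 for the chalazal endosperm, 15 and 11 for the outer seed coat, 2 lower for filial against maternal, 0 higher for inner against outer seed coat, and 21 and 7 for the whole seed, whose summed difference was 1.06, and 23 copies were highest in the peripheral endosperm. With quantile normalisation, 12 were higher in the outer seed coat, 0 in inner against outer seed coat, while 16 were higher in the whole seed, whose summed difference was 1.67 beside 0.36 as deposited. Under both of the last 2 scalings the summed level ranked the micropylar endosperm 1, the peripheral endosperm 2, the outer seed coat 3, the chalazal proliferating tissue 4 and the chalazal endosperm 5.

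Without BnaA04g20150D, LHCB1 held 37.8% of the antenna sum in the embryo proper, 35.2% in the micropylar endosperm, 34.7% in peripheral and 25.2% in chalazal endosperm, 21.3% in chalazal proliferating tissue, 29.9% in inner and 29.3% in outer seed coat, and 29.1% for whole seed. The A subgenome then held 48.0%, 47.9%, 53.9%, 58.9%, 54.9%, 52.6%, 51.9% and 54.0% in the same order. At 5 FPKM, 34 copies were detected in the inner seed coat, beside 54 at 1 FPKM.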

Other observations

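At 1 FPKM or more, 61 of the 68 copies were found in the peripheral endosperm (42.6% of all genes with values), 59 in chalazal proliferating tissue (42.3%), 56 in micropylar endosperm (30.4%), 56 in chalazal endosperm (35.7%), 54 in inner seed coat (46.7%), 54 in outer seed coat (40.9%) and 42 in embryo proper (34.2%). At 100 FPKM or more, a level reached by 1.1% to 1.79% of all genes in the compartments, there were 38 in the peripheral endosperm, 34 in the micropylar endosperm, 10 in chalazal proliferating tissue, 8 in chalazal endosperm, 3 in the outer seed coat, 1 in the embryo proper and 0 in the inner seed coat.

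The pool was carried by few copies in the whole seed. Its 5 most abundant copies held 50.0% of the antenna sum, and BnaA04g20150D alone held 22.7%. In the peripheral endosperm the 5 most abundant copies held 24.2%, and in the outer seed coat 38.8%. The chalazal proliferating tissue stood above the chalazal endosperm in 33 copies and below it in 24, where 46.3% of all compared genes were above.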
